A study of Homo sapiens with 24 samples.

Results

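The 10 genes described here are known from the pigmented epithelium of the retina and the epithelium of the choroid plexus, and were followed in the medulloblastoma line D425 (human, established) in cells labelled as carrying an inducible hairpin against the homeobox gene OTX2. The members were AQP1, CA2, TRPM3, TIMP3, TTR, MITF, RPE65, BEST1, TRPM1 and TYR, out of 19775 genes with a named probe set on the array. They were chosen as OTX2-linked epithelial genes, several of which fall after induction, so measured values of the induced arrays had a part in the choice. For that reason their changes in the induced courses are given as values with no test, and tests are given for what that choice did not use. All 30 probe sets annotated to these genes were taken, of 54675 on the array, and none of the 30 was shared with another gene in the annotation.

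The study profiled total RNA with Affymetrix U133 Plus 2.0 arrays, 1 array per sample, 24 in all. D425 cells carrying a doxycycline-inducible hairpin against OTX2 (shOTX2) were harvested 0, 8, 16, 24, 48 and 96 h after doxycycline in 3 independent time courses, and D425 cells labelled only as control were harvested at the same 6 times in 1 course. All cells share the D425 background, and the labels do not say what the control cells carry or whether the hairpin line is 1 clone. The OTX2 transcript itself changed little: its brighter probe set read 4659 ± 217 (SD, n = 3) at 0 h and 4188 ± 302 at 96 h in shOTX2, a log2 change of -0.15 that limma did not call (adjusted p = 0.172) unless the course was a block (adjusted p = 0.033). The other probe set changed by 0.12. The arrays therefore are named shOTX2 by their label, and every direction given for them is one of time after doxycycline in the cells so labelled. Values are MAS5 signals, an intensity on a linear scale, and changes are differences of log2(signal + 16). In bulk RNA, fewer cells that express a gene and less RNA per cell cannot be told apart.

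The retinal pigment epithelium is a melanin-bearing sheet behind the photoreceptors that recycles retinoids, takes up shed outer segments and moves ions and water, and the choroid plexus epithelium secretes cerebrospinal fluid with water channels, carbonic anhydrases and ion pumps. OTX2 is needed in the embryo for both tissues, and in the pigment epithelium it works beside MITF, a basic helix-loop-helix factor that binds E-boxes upstream of melanin genes such as TYR. Proteins of the OTX family recognise a short core, TAATCC, read as GGATTA on the other strand. TRPM3 and TRPM1, which encode related cation channels, each carry a microRNA of the same family in their gene body.

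The sequences of microRNAs and promoters of members are shown for what these genes carry in the genome, which the arrays do not measure. The first set is the pair of microRNAs that lie inside members, from RefSeq on GRCh38.p14, with the seed (bases 2 to 8) in capitals. miR-204-5p lies inside TRPM3 at chr9:70810031-70810052 on the minus strand, and miR-211-5p inside TRPM1 at chr15:31065095-31065116, also on the minus strand.
hsa-miR-204-5p: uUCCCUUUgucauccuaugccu
hsa-miR-211-5p: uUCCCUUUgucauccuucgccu
Both share the seed UCCCUUU, and over their 22 bases they differ at A17U and U18C, counted from the 5′ end of miR-204-5p. These arrays give no value for either microRNA here, so only the host genes are described.

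The second set is the 250 bases before the start site for 5 of the 11 promoter windows found, which cover 7 of the 10 members in the RefSeq table of GRCh38.p14. AQP1, TIMP3 and the upstream start of TRPM3 are shown because these genes fell together, and TYR and the upstream start of TRPM1 because their windows hold the motifs searched. Capitals mark any match to the OTX core TAATCC, which the other strand writes as GGATTA. They also mark the palindromic E-box CACGTG. The last motif is the E-box CATGTG, and the other strand of that one reads CACATG. Both strands were searched, and no matches shown overlap each other. AQP1 is at chr7:30911603-30911852 (plus strand), TIMP3 at chr22:32801455-32801704 (plus), TRPM3 at chr9:71446972-71447221 (minus), TYR at chr11:89177625-89177874 (plus) and TRPM1 at chr15:31161161-31161410 (minus).
AQP1: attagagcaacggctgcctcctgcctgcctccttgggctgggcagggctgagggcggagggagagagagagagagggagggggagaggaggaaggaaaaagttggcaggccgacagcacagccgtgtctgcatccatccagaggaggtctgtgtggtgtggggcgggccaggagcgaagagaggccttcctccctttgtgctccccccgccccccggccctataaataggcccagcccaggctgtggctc
TIMP3: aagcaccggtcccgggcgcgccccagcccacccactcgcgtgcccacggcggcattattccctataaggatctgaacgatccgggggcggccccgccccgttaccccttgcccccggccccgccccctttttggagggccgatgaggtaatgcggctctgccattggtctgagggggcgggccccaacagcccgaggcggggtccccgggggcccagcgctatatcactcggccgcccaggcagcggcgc
TRPM3: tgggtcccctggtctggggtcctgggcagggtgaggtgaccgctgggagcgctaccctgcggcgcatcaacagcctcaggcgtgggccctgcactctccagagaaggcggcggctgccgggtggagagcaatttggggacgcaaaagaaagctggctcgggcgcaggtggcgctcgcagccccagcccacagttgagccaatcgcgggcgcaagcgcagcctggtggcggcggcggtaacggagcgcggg
TYR: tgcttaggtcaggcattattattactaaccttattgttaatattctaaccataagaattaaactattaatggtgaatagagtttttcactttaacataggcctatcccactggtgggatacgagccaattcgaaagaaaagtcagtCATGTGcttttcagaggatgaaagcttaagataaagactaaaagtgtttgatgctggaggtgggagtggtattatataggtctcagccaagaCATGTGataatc
TRPM1: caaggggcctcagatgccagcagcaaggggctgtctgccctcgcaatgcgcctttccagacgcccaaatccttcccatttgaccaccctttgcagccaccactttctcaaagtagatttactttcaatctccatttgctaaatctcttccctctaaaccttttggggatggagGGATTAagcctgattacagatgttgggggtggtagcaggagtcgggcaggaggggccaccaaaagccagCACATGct
No window of AQP1, TIMP3, TRPM3, MITF or RPE65 held any of the 3 motifs. A further 3 windows held one: TYR has CATGTG beginning 104 and 12 bases before the start site, the upstream TRPM1 window has GGATTA at 77 and CACATG at 8 bases, and the other TRPM1 window has CACATG at 56 bases. Over all 35116 promoter windows of this length, 5.62% held the OTX core, 6.34% CACGTG and 9.42% CATGTG. A match is a run of letters and not a measured site, and the windows leave out more distant elements. No difference between members is read from so few windows.

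The signals parted the members into 4 that were well measured and fell, and 6 that were dim or, on the probe set that represents them, steady. The filter on low values asked for a signal over the median of the array on 3 or more of the 24 arrays, and that median lay between 16.3 and 20.6. Of the 30 probe sets, 20 passed, from 8 genes, and 9 never exceeded the array median. Of all 54675 probe sets on the array 33803 passed, with the 62 control probe sets left out. TTR, which encodes the thyroxine carrier of choroid plexus epithelium, did not pass and read between 1.4 and 13.6 over all 24 arrays. TRPM1, a channel of melanocytes and retinal bipolar cells, did not pass either and read between 0.1 and 11.1 over its 4 probe sets.

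**Figure D1:**
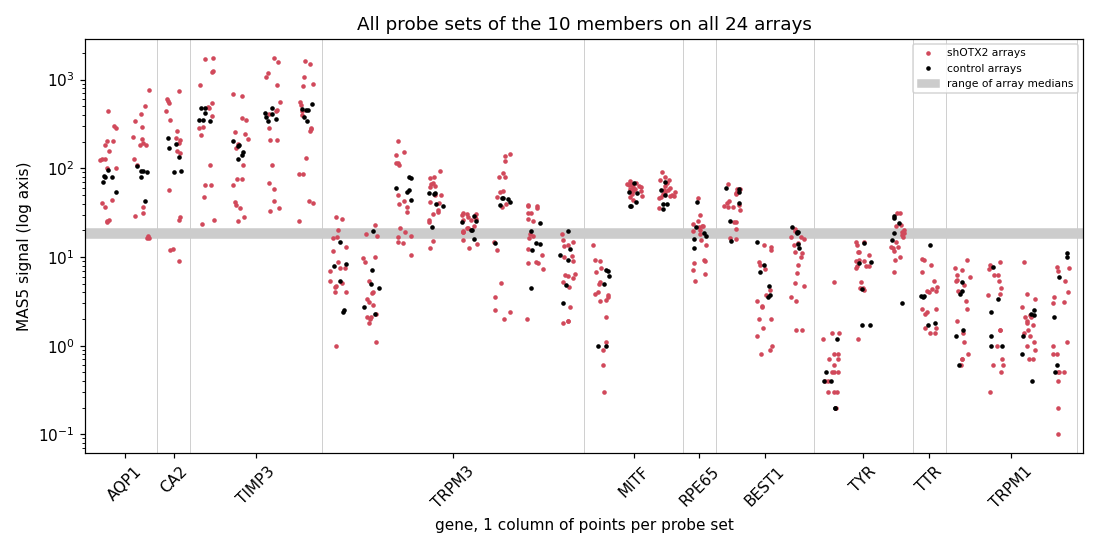
MAS5 signal (log axis) of each of the 30 probe sets of the 10 genes on the 24 arrays, 1 column of points per probe set, with shOTX2 arrays in red, control arrays in black and the range of array medians (16.3 to 20.6) as a grey band. AQP1, CA2 and TIMP3 spread far above the band, TRPM3 does so on some of its 8 probe sets, and TTR and TRPM1 lie below it on every array.

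Markers of these epithelia were mixed in these cells, so the members are named here by their genes and not as a tissue. Of the listed genes with a probe set, 14 of 18 melanin genes, 9 of 14 visual cycle genes, 14 of 19 other pigment epithelium genes and 15 of 24 choroid plexus genes passed the filter. Of all 19775 genes with a named probe set 13903 passed, and no difference from that share is read from these counts. Some listed genes were bright at 0 h in shOTX2, among them SERPINF1 (2719 ± 454), which encodes a secreted factor of the pigment epithelium, and the folate receptor gene FOLR1 (1183 ± 227). The genes named next did not pass. Both sets of examples were chosen after their values were seen. The melanosome protein gene PMEL peaked at 28, the melanin enzyme gene TYRP1 at 22.6 and the melanosome gene MLANA at 14.3 over all arrays and probe sets. LRAT, which makes retinyl esters, peaked at 11.8, the potassium channel gene KCNJ13 at 11.4 and KL, a choroid plexus and kidney gene, at 8.9. Of 7 melanocyte and neural crest markers 1 was tested, EDNRB, and their summed signal over the 6 with a probe set was 17.1 to 39.3 at 0 h and 19.4 to 39.5 at 96 h in shOTX2. Markers of the tumour itself, MYC, OTX2 and CRX among 8 genes, summed to between 11807 and 13170 at 0 h and between 9258 and 9742 at 96 h in shOTX2, without overlap, and to 13499 and 15604 in the control course. These genes did not fall together. In shOTX2 the mean of MYC went from 5022.5 to 3063.5 and that of IMPG2 from 2475.5 to 1393.8. CRX rose from 142.8 to 355.7 and NRL from 272.1 to 471.8, the latter without a call, and OTX2 was not called. The other kept probe set of CRX changed by only 0.24 on the log2 scale. That of NRL changed by -0.33, against 0.81 on the brighter one, so the direction of NRL depended on the probe set. The part of the movement of this sum in the members' values was not tested.

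TIMP3, a secreted metalloproteinase inhibitor bound in Bruch's membrane beneath the pigment epithelium, was the brightest member and had the deepest fall. On probe set 201147_s_at the signal at 0 h was 1761 in course 1, 1226 in course 2 and 544.9 in course 3. At 8 h it was 1715, 1257 and 856.3, at 16 h 486.8, 477.8 and 387.6, and at 24 h 287.7, 291.2 and 239.8. It then reached 109.5, 64.7 and 65.5 at 48 h and 25.9, 23.5 and 47.4 at 96 h. At 8 h courses 1 and 2 were near their 0 h level and course 3 was above it, and from 16 h on every array was below all 0 h arrays. On this probe set course 3 began lowest and ended highest, while on the other 3 course 2 was highest at 96 h. The control course read 341.8, 476.4, 480.7, 348.4, 351.2 and 414.0 over the same times, without a sustained fall. Its change at 96 h was 0.27, against a shOTX2 change of -4.51 (SE 0.33). The other 3 probe sets of TIMP3 fell in all 3 courses too, with changes between -4.29 and -3.05.

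CA2, a cytosolic carbonic anhydrase that supplies bicarbonate for fluid transport, ended below the array median. Its single probe set read 568.1, 548.9 and 349.2 at 0 h in courses 1, 2 and 3, and 733.7, 606.8 and 445.4 at 8 h. At 16 h it read 263.9, 210.3 and 219.1, at 24 h 192.4, 148.8 and 155.8, and at 48 h 56.4, 28.0 and 26.0. The values at 96 h were 8.9, 12.2 and 11.9. In each course the 8 h array was above its own 0 h array, and every array from 16 h on was below all of the 0 h arrays. In the control course CA2 read 169.4, 186.7, 132.9, 92.2, 219.6 and 90.3, so that it was lower at 24 and 96 h and highest at 48 h. The change at 96 h was -4.20 (SE 0.22) in shOTX2 and -0.80 in the control course.

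AQP1, the water channel on the fluid-facing side of the choroid plexus, also had every array from 16 h on below all of the 0 h arrays. At 8 h it was above its own 0 h array only in course 3. On probe set 209047_at it read 756.9, 406.8 and 225.3 at 0 h, 500.6, 340.1 and 289.9 at 8 h, and 215.4, 194.9 and 184.1 at 16 h. It then read 109.9, 182.5 and 128.7 at 24 h, 29.3, 36.9 and 31.2 at 48 h, and 16.3, 17.4 and 16.5 at 96 h. The courses were more than 3-fold apart at 0 h, with course 1 highest, and lay within a few units of each other at 96 h, at the level of the array median. The control course read 92.3, 105.0, 90.1, 79.4, 92.2 and 42.5. The 96 h change was -3.71 (SE 0.29) in shOTX2 and -0.89 in the control course. The second probe set, 207542_s_at, changed by -2.87 in shOTX2 and was lower in all 3 courses.

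TRPM3, the host gene of miR-204, is measured by 8 probe sets that differed widely in brightness. The one with the highest mean, 211422_at, read 115.1, 203.5 and 140.5 at 0 h, 107.7, 154.1 and 115.7 at 8 h, and 32.1, 49.7 and 39.9 at 16 h. It read 19.2, 36.8 and 42.5 at 24 h, 16.7, 21.2 and 14.3 at 48 h, and 10.4, 14.6 and 17.2 at 96 h. The drop between 8 and 16 h was present in every course, and at 48 and 96 h the signal was at or below the array median in nearly every array. The control course read 77.2, 78.9, 54.2, 56.4, 44.3 and 60.4. The 96 h change was -2.46 (SE 0.22) in shOTX2 and -0.29 in the control.

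**Figure D2:**
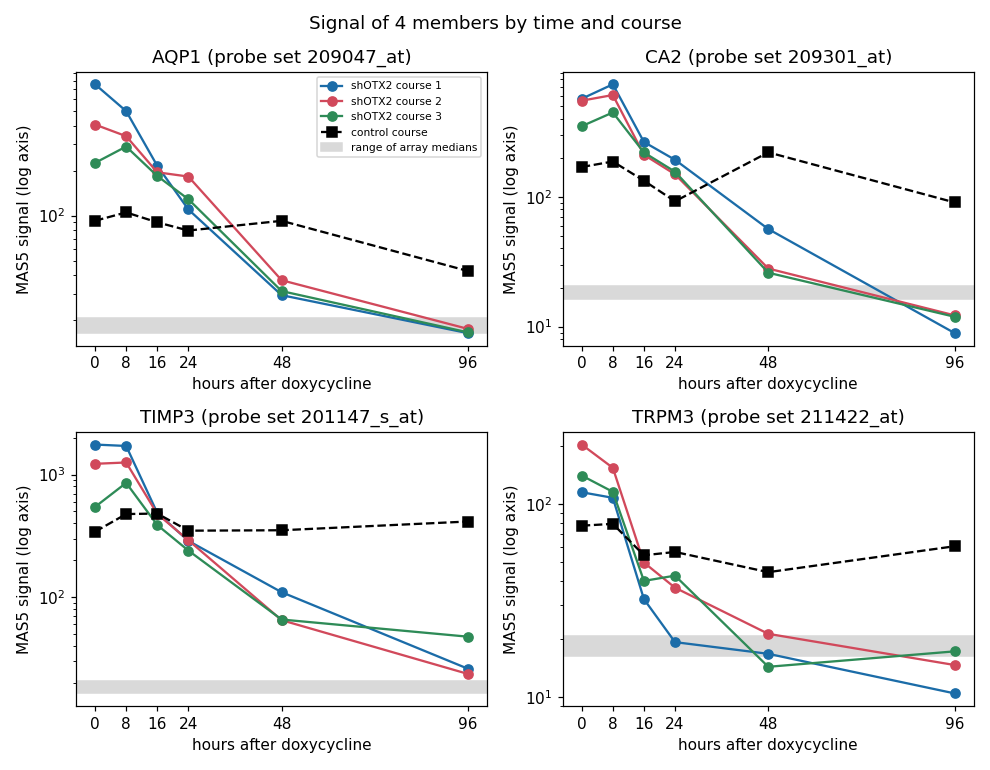
MAS5 signal (log axis) against hours after doxycycline for AQP1, CA2, TIMP3 and TRPM3, each on its brightest kept probe set, with the 3 shOTX2 courses as coloured lines, the control course as a dashed black line and the range of array medians as a grey band. The shOTX2 lines start above the control, cross it between 8 and 48 h and end near the band, where AQP1 reads 16.3, 17.4 and 16.5.

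The 8 TRPM3 probe sets all had negative mean changes at 96 h, from -2.58 on 233022_at to -0.22 on 220463_at, and 7 of them passed the filter. The 2 probe sets with changes beyond -2 also had 0 h signals of 79.2 to 203.5. On 233022_at the signal fell from 119.9, 135.7 and 79.2 at 0 h to 2.5, 3.5 and 5.1 at 48 h. 220463_at stayed near the array median throughout, between 12.7 and 31.4. Other probe sets that began as dim changed more: 239291_at went from 30.8 ± 5.10 to 7.73 ± 5.28, and 1554722_at from 23.7 ± 6.42 to 4.43 ± 0.379. 216452_at, with 60.9, 67.4 and 63.2 at 0 h, ended at 15.2, 25.8 and 12.6, a change of -1.26. Which part of the transcript each probe set reads is not given in the sources used here.

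**Figure D3:**
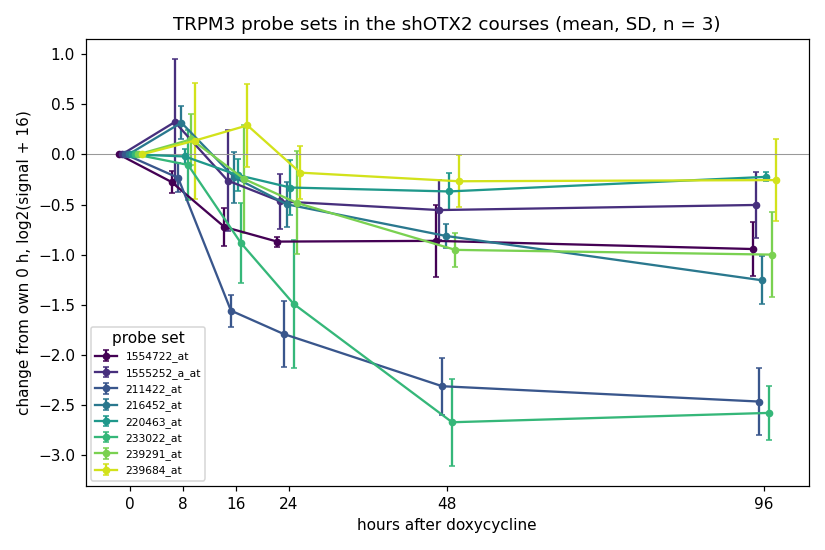
Change of each TRPM3 probe set from the 0 h array of its own course, in log2(signal + 16), against hours after doxycycline in the shOTX2 courses (points are means and bars SD, n = 3, shifted sideways for legibility). The 2 brightest at 0 h, 211422_at and 233022_at, reach -2.46 and -2.58 at 96 h, while the other probe sets end between -1.26 and -0.22.

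The timing of the falls was compared on the probe sets that represent the genes. By 16 h the mean change had covered 63.2% of its 96 h value for TRPM3, against 27.1% for AQP1, 24.0% for CA2 and 26.8% for TIMP3. By 24 h the shares were 72.7%, 39.9%, 34.6% and 42.1%, and by 48 h they were 93.8%, 84.8%, 78.0% and 78.0%. In single courses the 24 h share of TRPM3 lay between 63.5% and 82.0%, and those of the other 3 genes between 25.5% and 57.2%. The second strong TRPM3 probe set, 233022_at, had covered 34.2% by 16 h and 57.8% by 24 h, closer to the other genes. The probe set 201148_s_at of TIMP3 had covered 65.9% by 24 h, within the range of single courses of TRPM3. The order of timing thus depended on which probe set stood for a gene.

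Between the induced arrays and the 0 h arrays, 4 of the 8 members that passed (AQP1, CA2, TRPM3 and TIMP3) had all 3 arrays at 16 h below all 3 at 0 h, where 7.17% of the 13903 tested genes did. RPE65 joined them at 24 h, when 9.98% of genes did, and the same 5 were below at 48 h (20.9% of genes) and 96 h (25.4%). At 8 h none of the 8 was, against 3.50% of all tested genes. At 96 h limma called 43.6% of tested genes in either direction, 22.5% as lower. In the order of all 13903 changes at 96 h, counted from the most negative, TIMP3 was at place 2, CA2 at 3, AQP1 at 6 and TRPM3 at 63. These positions describe how the members were chosen and are not evidence of their own.

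The spread between courses was large at 0 h and narrowed later. On the log2(signal + 16) scale the SD (n = 3) at 0 h was 0.84 for AQP1, 0.85 for TIMP3, 0.38 for CA2 and 0.38 for TRPM3, and at 96 h 0.026, 0.37, 0.10 and 0.17. The SD of CA2 was 0.44 at 48 h and that of TRPM3 was 0.39 at 24 h. At 96 h AQP1, CA2 and TRPM3 read near or below the 16 added, where this scale compresses spread. AQP1, CA2 and TIMP3 were highest in course 1 and lowest in course 3 at 0 h, while TRPM3 on 211422_at was highest in course 2 and lowest in course 1. On 233022_at TRPM3 was lowest in course 3 at 0 h. The ratio of 3' to 5' probe sets for actin, which tracks how intact the labelled RNA was, also differed between the courses, with means over 6 arrays of 1.42 in course 1, 2.07 in course 2, 1.91 in course 3 and 1.40 in the control course. The part of this ratio in the spread was not tested.

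At 0 h the single control array was below all 3 shOTX2 arrays for AQP1, CA2, TIMP3, TRPM3, MITF, RPE65 and TYR, 7 of the 8 members that passed (23.8% of tested genes), and above all 3 for BEST1. Nothing is read from that count, since the choice of members used the shOTX2 0 h arrays. The difference between the arms at 0 h, shOTX2 minus control, was 1.99 (SE 0.41) for AQP1, 1.59 (SE 0.46) for TIMP3, 1.41 (SE 0.31) for CA2 and 0.83 (SE 0.31) for TRPM3. No p is given for these. Over all genes limma called 63 of 13903 between the arms at 0 h, or 0.453%, and without course 1 it called 641. By 48 h the order was turned, and the shOTX2 arrays of these 4 genes were all below the control array: at most 36.9 against 92.2 for AQP1, 56.4 against 219.6 for CA2, 109.5 against 351.2 for TIMP3 and 21.2 against 44.3 for TRPM3.

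The control course gives values that the choice of members did not use, and asks whether the same genes moved with time in culture. Late (48 and 96 h) against early (0 and 8 h), none of the 8 members was called by limma. The estimates were -0.52 for AQP1 (95% interval -1.28 to 0.23, adjusted p = 0.797), -0.29 for CA2 (-0.86 to 0.28, adjusted p = 0.886), -0.47 for TRPM3 (-1.03 to 0.092, adjusted p = 0.714) and -0.079 for TIMP3 (-0.92 to 0.76, adjusted p = 0.999). The same contrast in the shOTX2 courses, which the choice of members used, gave -3.35, -3.87, -2.27 and -4.12 and is set beside them with no test. On the probe sets that represent them, the control intervals of AQP1 and TRPM3 hold falls of more than 1 on the log2 scale. The other AQP1 probe set, 207542_s_at, gave -0.054 (SE 0.27) in the control course. Other kept probe sets gave -0.19 to 0.18 for TIMP3 and -0.28 to 0.48 for TRPM3, with -0.042 on 233022_at and 0.41 on 216452_at. The ends of the TRPM3 range came from 1554722_at and 1555252_a_at, above the array median on only 4 and 3 of the 24 arrays. In the control course 1554722_at read 2.4 to 14.8, under the median throughout. There 1555252_a_at exceeded it only at 96 h (19.5). These 2 thus say little about TRPM3 in the control cells. Some of the gene estimates changed sign. TRPM3 went to 0.11 with the mean of its kept probe sets, the dim ones included. CA2 went to 0.28 without the control 96 h array, and TIMP3 to 0.15 and 0.035 without the control 8 h or 48 h array. Over all genes limma called 0 of 13903 in this contrast, or 0.00%, with 1103 at an unadjusted p under 0.05 and 84 with the course as a block. The control groups hold 1 array each and were assumed to vary like the shOTX2 groups, on which the intervals rest.

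**Figure D4:**
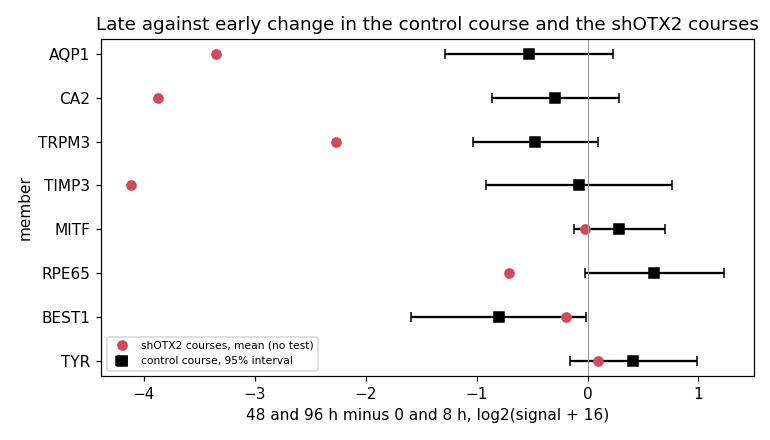
Late (48 and 96 h) minus early (0 and 8 h) change in log2(signal + 16) for the 8 members that passed the filter, with the control course as black squares with limma's 95% interval and the mean of the shOTX2 courses as red points with no test. The red points of AQP1, CA2, TRPM3 and TIMP3 lie between -4.12 and -2.27, and that of RPE65 at -0.71. Those of MITF, BEST1 and TYR lie between -0.20 and 0.096. The control intervals leave out the error of the red points, so nothing is read from where the points lie against them.

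MITF, the master factor of pigment cells, was measured above the array median on all 24 arrays by 2 probe sets. The one that represents it did not share the fall. Probe set 207233_s_at read 65.2, 54.9 and 63.1 at 0 h and 66.4, 57.9 and 61.6 at 96 h in courses 1, 2 and 3, and 41.1 and 67.7 in the control course. On this probe set the shOTX2 arrays at every later time overlapped those at 0 h. The control array was below all 3 shOTX2 arrays at 0, 8 and 48 h and above them at 96 h. In shOTX2 the change at 96 h was 0.018, which became -0.10 with each array centred on its median and -0.13 with quantile normalization. The other, 226066_at, read 63.6, 74.2 and 73.1 at 0 h and 35.8, 46.2 and 67.9 at 96 h, a change of -0.41. It was lower at 96 h in all 3 courses. Its arrays at 24 h (46.9, 49.2 and 59.6) and 48 h (57.1, 49.9 and 51.6) were all below those at 0 h. Of all tested genes, each on 1 probe set, 9.98% and 20.9% were so at these times. The 2 kept probe sets thus differed, with changes of 0.018 and -0.41. In the control course the first was 0.29 higher late than early (95% interval -0.13 to 0.70, adjusted p = 0.794 by limma), and -0.029 without the control 96 h array.

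RPE65, the retinoid isomerase that defines the visual cycle of the pigment epithelium, was close to the array median. It read 21.5, 23.5 and 22.1 at 0 h, 18.1, 20.3 and 13.7 at 24 h, and 8.6, 7.1 and 5.3 at 96 h in shOTX2, a change of -0.74 (SE 0.24). At 8 h the courses were far apart, at 9.2, 46.7 and 29.8. The SD on the log2(signal + 16) scale was 0.67 there, against 0.038 at 0 h, so the decline was not steady in each course. In the control course it read 12.7 at 0 h and 42.0 at 96 h, with a late against early estimate of 0.60 (95% interval -0.026 to 1.23, adjusted p = 0.643 by limma). The 2 arms thus moved apart at 96 h, at signals of which the shOTX2 ones were under the array median. With pseudocounts of 4 and 64 the shOTX2 change was -1.27 and -0.28.

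BEST1, a chloride channel of the basolateral membrane of the pigment epithelium, and TYR, the first enzyme of melanin synthesis, showed no common direction. BEST1 on 1554442_at read 36.7, 42.2 and 20.7 at 0 h and 16.5, 24.9 and 53.4 at 96 h in shOTX2, a change of -0.096, and its other kept probe set changed by 0.17. In the control course BEST1 went from 53.7 to 15.3, with a late against early estimate of -0.80 (95% interval -1.59 to -0.013) that limma did not call (adjusted p = 0.621). TYR on 206630_at read 10.0, 17.5 and 18.4 at 0 h and 6.7, 19.2 and 12.8 at 96 h. Its control values ran from 3.0 at 0 h to 29.1 at 8 h, and the late against early estimate was 0.41 (adjusted p = 0.778 by limma), or -0.21 without the control 0 h array. The remaining 2 TYR probe sets never exceeded the array median.

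Across the 24 arrays the 4 falling genes were correlated with each other, with Pearson's r between 0.81 (AQP1 and TRPM3) and 0.97 (CA2 and TIMP3), as a description of arrays that share the time course. Over the 6 control arrays the same pairs had r between -0.022 and 0.74, the highest being AQP1 and CA2. Over all 24 arrays MITF had r between -0.057 and 0.071 with these 4 genes. The genes most like AQP1 were ADAM28 (r = 0.97), which encodes a membrane metalloproteinase, PAQR9 (0.97) and FKBP5 (0.95), and those most like CA2 were the formin gene DIAPH3 (0.97), PAQR9 (0.96) and the chaperone gene HSPA4 (0.96). Those most like TIMP3 were the spectrin gene SPTBN1 (0.96), MYRF (0.96) and CDR2 (0.96), and those most like TRPM3 were GDE1 (0.97), DTD2 (0.96) and ARHGAP29 (0.96). All were chosen by r over the same 24 arrays.

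Other genes of these epithelia went both ways at 96 h against 0 h in shOTX2. Between 33.3% and 57.1% of each list was called, against 43.6% of all tested genes (21.1% higher and 22.5% lower). Of 14 tested melanin and melanosome genes 4 rose and 3 fell, with a median change of -0.048 against -8.8e-05 over all genes. RAB38, a small GTPase of melanosome transport, fell from 290.7 ± 25.4 (SD, n = 3) to 60.9 ± 16.7 (log2 -2.01, adjusted p = 1.47e-08 by limma), and GPNMB, a melanosome glycoprotein gene, from 87.2 ± 19.991 to 29.4 ± 9.97. MYO7A, a myosin that moves melanosomes, rose from 137 ± 16.8 to 254 ± 48.7, and LYST, a gene of lysosome-related organelles, by 0.73 (0.38 and adjusted p = 0.0638 by limma with the mean of its probe sets). In the control course RAB38 read 280.4 and 326.0 and MYO7A 146.0 and 129.1 at 0 and 96 h.

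Of 9 tested visual cycle and retinoid genes 1 rose and 3 fell (2 called without course 3), with a median of -0.27. The retinol dehydrogenase gene RDH10 fell from 243 ± 23.9 to 95.2 ± 19.1 (log2 -1.23, adjusted p = 4.33e-07 by limma), and BCO1, which cleaves beta-carotene, from 274 ± 23.9 to 110 ± 3.92. RDH5, the 11-cis retinol dehydrogenase of the pigment epithelium, rose from 24.2 ± 2.90 to 54.9 ± 5.95 (0.82, adjusted p = 0.00366 by limma, and 0.0973 without course 3). Of 14 other pigment epithelium genes 2 rose and 6 fell, with a median of -0.25. The integrin pair that takes up outer segments fell: ITGAV from 2503 ± 163 to 956 ± 83.4 (log2 -1.38) and ITGB5 from 172 ± 28.7 to 41.2 ± 7.62 (-1.72). The keratin genes KRT18 and KRT8 rose by 0.91 and 0.71, with adjusted p = 0.041 and 0.00933 by limma. The KRT18 call was lost with no filter, with both other scalings and without course 2 or 3, where its adjusted p ran from 0.0601 to 0.224, and that of KRT8 without course 3 (0.0715).

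Of 15 tested choroid plexus genes 1 rose and 4 fell, or 1 and 6 with the course as a block, with a median of -0.12 (3 called without course 2). The sodium pump subunit gene ATP1B1 rose from 622 ± 286 to 1609 ± 243 (log2 1.43, adjusted p = 0.000412 by limma). PCP4L1 fell from 121 ± 33.2 to 40.5 ± 3.25, and the monoamine transporter gene SLC29A4 from 137 ± 61.1 to 53.2 ± 14.9, with a call lost without course 2 (adjusted p = 0.0908 by limma). Of 9 tested eye field and pigment epithelium transcription factors 2 rose and 1 fell, with a median of 0.17. PAX6, an eye field factor, rose from 14.3 ± 9.10 to 65.8 ± 12.3, and SIX3 fell from 466 ± 47.8 to 250.3 ± 10.4. CRX rose from 143 ± 26.5 to 356 ± 34.5 (log2 1.24, and 0.24 on its other kept probe set). SIX3 read 471.1 and 647.5 and CRX 124.0 and 274.2 in the control course.

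Gene relatives of the members did not move as families. Of 18 tested relatives 4 rose and 6 fell, with a median of -0.093, and without course 2 there were 5 called. CA4, a membrane-bound carbonic anhydrase, fell from 2015 ± 482 to 435 ± 84.2 (log2 -2.16, adjusted p = 6.78e-06 by limma), beside CA2. CA1 rose by 0.92 at signals of 8.53 ± 10.5 and 28.2 ± 5.06 (adjusted p = 0.0127 by limma, and 0.0555 and 0.171 without course 1 and 2). Among the metalloproteinase inhibitors TIMP1 fell from 782 ± 207 to 415 ± 95.8 (-0.88, adjusted p = 0.00277 by limma, and 0.065 without course 2), while TIMP2 rose from 195 ± 55.1 to 705 ± 125 (1.79, adjusted p = 4.45e-06). TIMP3 and TIMP1 thus were lower and TIMP2 higher at 96 h.

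**Figure D5:**
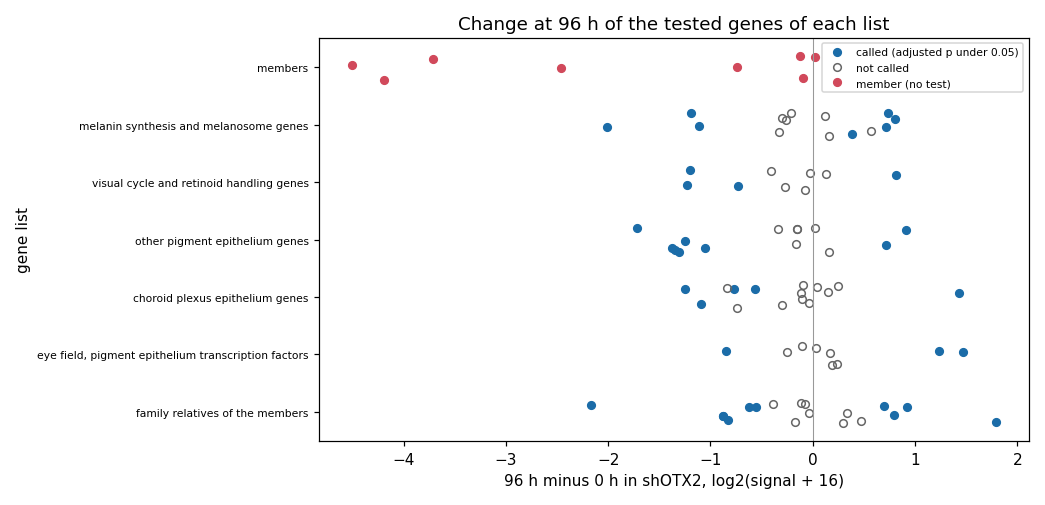
Change at 96 h against 0 h in the shOTX2 courses, in log2(signal + 16), of each tested gene of 6 lists (filled blue where limma's adjusted p was under 0.05, open where not) and of the 8 members that passed the filter (red, no test). AQP1, CA2, TIMP3 and TRPM3 lie between -4.51 and -2.46, and the lists spread to both sides of 0.

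Markers of other cell types were read beside these results. Of 5 tested fibroblast genes, 3 rose at 96 h (COL1A2, COL3A1 and PDGFRB), where 21.1% of all tested genes did, while DCN changed by -0.14 and THY1 by -0.22 without a call. The summed signal over 7 fibroblast genes went from between 60 and 95.9 to between 190.4 and 329.6. Blood and endothelial markers summed to between 40.5 and 66.6 at 0 h and between 45.6 and 63.9 at 96 h. The part of either in the members' values was not tested.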

How the data were processed

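Each D425 RNA sample was read on 1 Affymetrix U133 Plus 2.0 array. The authors deposited a MAS5 signal, a linear intensity, for every probe set, computed with MAS5 and GCOS per the submitters' processing notes. Every array had a trimmed mean of 100.0 (2% trimmed at each end), so each was scaled as a whole. The table has no detection calls, and precision is limited by how many arrays there are.

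Gene symbols came from GEO's platform annotation (41097 probe sets with 1 symbol, 1801 with several), with symbols updated by Entrez ID for 41043 through the RefSeq table of GRCh38.p14. The 62 AFFX control probe sets were left out. Probe sets above the array median in at least 3 arrays were kept (33803), and 1 of them, the brightest on average, stood for each of 13903 genes. Signals were transformed as log2(signal + 16), which understates changes of dim genes. limma 3.58.1 in R 4.3.3 was fitted to the 12 group means of all 24 arrays, with eBayes and a mean-variance trend (12 residual degrees of freedom, all from the shOTX2 groups), and checked on simulated data. A gene is called at a Benjamini-Hochberg adjusted p under 0.05 over all tested genes. Member probe sets were also fitted among all 33803. Course numbers pair arrays across times, as the labels name independent courses: deviations from group means correlated in all 45 same-course pairs (r from 0.156 to 0.556). A fit with the course as a block has 10 residual degrees of freedom.

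The members, lists and naming rule were chosen with earlier results of these data known. The rule names the members, OTX2, up to 2 called genes each way per list with the same sign in all 3 courses, and the 3 genes most correlated with each member. Alternatives were pseudocounts of 4 and 64, no filter, the mean of probe sets, median centring, quantile normalization, the block, each course left out, and the compared groups alone. Leaving out each control array was added after the data were seen.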

Additional observations from a re-analysis of the deposited data

Results flagged for a closer look

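For 9 of the 21 genes named from the lists, the change at 96 h against 0 h differed between shOTX2 and the control course by limma's interaction of arm and time, with an adjusted p under 0.05. Over all tested genes 1906 of 13903 did. The 21 genes were named for their called shOTX2 change at 96 h, which is part of this difference, so the differences are values and no independent evidence, and no p is given. The control side rests on 1 array at each time. RAB38 changed more in shOTX2 by -2.22 on the log2 scale, and MYO7A by 0.97. RDH10 differed by -1.51, ITGAV by -1.75 and PCP4L1 by -1.81. PAX6 differed by 2.43, from 28.0 to 6.6 in the control course against a rise in shOTX2, and SIX3 by -1.30. TIMP2 differed by 2.10, and CA4 by -1.76. With the course as a block GPNMB, BCO1, KRT18, ITGB5, ATP1B1, SLC29A4 and TIMP1 passed as well, where 3608 of all 13903 genes passed. CRX did not pass (0.18). No group held 4 or more arrays, so single outlying arrays were not looked for.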

How the results depend on the processing

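In the control course limma called 0 genes late against early, 1 with a pseudocount of 64, 84 with the replicate block, 3 for 96 h against 0 h alone, and between 0 and 19 with a course or a control array left out (6 without course 1, 8 without the control 48 h array and 19 without the 96 h array). No member was called in that comparison under any setting, with adjusted p from 0.237 up, but estimates changed sign for TRPM3 with the mean of probe sets (0.11), and, with a control array left out, for CA2 (from -0.87 to 0.28), TIMP3 (-0.31 to 0.15), MITF (-0.029 to 0.60) and TYR (-0.21 to 1.04). Between the arms at 0 h it called 63 genes, 1 with only the compared groups, and between 16 and 641 with a course left out; no block fit exists there. At 96 h it called 6065 genes, 4207 to 6167 without a course. With arrays centred on their medians, the median change of all genes at 96 h became -0.12 and the share of calls that were higher from 48.4% to 38.5%. The list counts ranged, without a course, from 2 to 4 for the visual cycle, 3 to 6 for the choroid plexus and 5 to 8 for the relatives, and the transcription factors had 5 called without the filter. Of 231 values of named list genes 12 lost their call and none changed sign. The block called OTX2 at 96 h (adjusted p = 0.033 by limma) and changed no call of the 21 named list genes there. The cause of these shifts was not tested. The 96 h changes of AQP1, CA2, TIMP3 and TRPM3 kept their sign under every setting run, and the size depended on the pseudocount: CA2 was -5.01 with 4 and -2.86 with 64. Without read depth, signals near the array median limit what can be seen.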

Other observations

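RPE65, TYR, BEST1 and MITF had weaker likeness to other genes over the 24 arrays than AQP1, CA2, TRPM3 and TIMP3 had. RPE65 was most like LAP3 (r = 0.83), ZBTB38 (0.80) and THEM4 (0.80), and TYR was most like FBF1 (0.75), LRRN3 (0.67) and MAPK8IP2 (0.64). BEST1 was most like MRPS16 (0.69), CHCHD1 (0.65) and SLC25A2 (0.64), and MITF most like GOLGA4 (0.66), UTRN (0.64) and PEX11A (0.64).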
